A study of Mus musculus with 11 samples.

Results

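RNA of normal mouse liver was measured at embryonic day 14 (E14), embryonic day 18 (E18), postnatal day 5 (P5) and postnatal day 56 (P56), and the genes described here are 9 imprinted genes of growth control. They are Igf2, H19, Dlk1, Peg3, Plagl1, Cdkn1c, Grb10, Mest and Igf2r, taken by name from the array annotation with every probe that carries that name. They are 9 of 27962 gene names on the array and have 17 of its 41174 probes, and all 9 were among the 16704 genes tested. On each array the liver sample was read in the Cy5 dye, and bought RNA of adult mouse liver, the same for all arrays, was read in the Cy3 dye as the reference. The stages had 3, 3, 2 and 3 arrays, which the labels call biological replicates, so p-values measure the spread between these samples. The P5 arrays are numbered 2 and 3. No strain, genotype, treatment or sex is given in the labels used here. The source is given as liver of each stage, while a cell type field reads hepatoblasts at E14, immature hepatocytes at E18 and hepatocytes later, so whether a fetal array holds whole liver or isolated cells is not settled.

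An imprinted gene is transcribed mainly from the copy inherited from a given parent. Igf2, Dlk1, Peg3, Plagl1 and Mest are known as genes of the paternal copy, and H19, Cdkn1c, Grb10 and Igf2r as genes of the maternal copy in most mouse tissues. Many of them act on fetal growth, and several are known to be abundant in fetal tissues and low in adult ones. The probes do not tell the parental copies apart, so the values below are of both copies together.

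The level given for a gene is the log2 ratio of Cy5 over Cy3 on an array, so that 0 means the level of the adult reference and each unit is a doubling. All 9 genes were above the reference on every array of E14, E18 and P5, and all 9 had ratios close to 0 at P56, where stage means lay between -0.26 and 0.21. For Dlk1, Peg3 and Grb10 no P56 array was well above background in Cy5, and for Igf2 and Plagl1 1 of the 3 was. Where the Cy5 signal was at background, a ratio near 0 is not a measured level. From E14 to E18 the log2 ratio of 4 genes rose, that of none fell, and 5 did not pass the test. No gene was lower at an unadjusted limma p under 0.05 either. From E18 to P5 it fell for 5 genes and 4 did not pass, and from P5 to P56 it fell for all 9. Calls are from limma over all 11 arrays, at a Benjamini-Hochberg adjusted p under 0.05 over all genes tested. Among all 16704 genes, 22.8% were called lower and 24.6% higher at E18 than at E14. At P5 against E18 these shares were 6.4% and 7.32%, and at P56 against P5 they were 24.7% and 20.9%. The median change of the 9 genes was 0.34 from E14 to E18, -1.05 from E18 to P5 and -3.11 from P5 to P56. The median over all genes in the same comparisons was -0.01, 0.00 and -0.02. Of the genes called at P56 against P5, 54.3% were lower, and 93.2% were after centring every array on its own median, which moved the median of all genes to -0.47. All 9 imprinted genes were called lower there too. Igf2, Dlk1, Peg3, Plagl1 and Grb10 passed the filter on dim probes through earlier stages only. Little but a fall to P56 could be called for them.

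**Figure D1:**
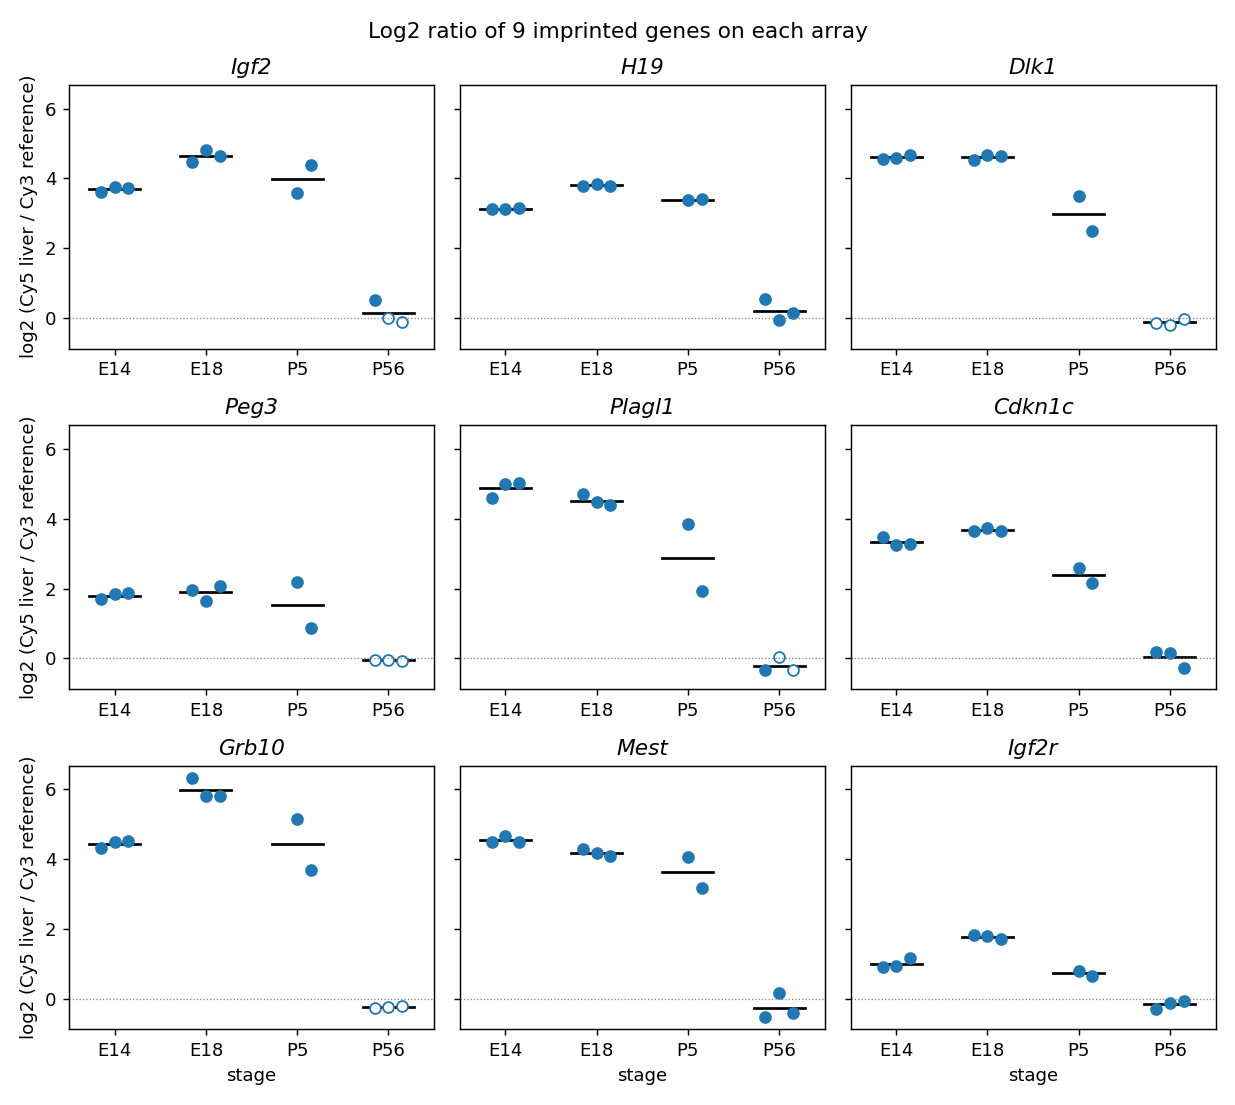
Log2 ratio of Cy5 over Cy3 (y axis) of each gene's brightest probe on each of the 11 arrays, by stage (x axis), with points for arrays and a bar for the stage mean. Open points mark arrays on which the probe was not well above background in Cy5, all of them at P56, and the dotted line at 0 is the level of the adult reference.

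Signal and spread differed between arrays. Of 43379 spots, 16790 to 25718 per array were well above background in Cy5, with the lowest number on P56 replicate 2. Replicates of a stage correlated across probes at r of 0.986 to 0.989 at E14, 0.964 to 0.982 at E18, 0.894 at P5 and 0.826 to 0.934 at P56. There were 4 scanner runs, with the E14 arrays and E18 replicate 1 in the first and P5 replicate 3 and the P56 arrays in the last. Stage and scan cannot be told apart from E18 to P5 or from E14 to P56, since those stages share no scan. In this bulk RNA, fewer cells that make a transcript and less transcript per cell cannot be told apart.

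Igf2 encodes insulin-like growth factor 2, the main growth factor of the fetus. Its brightest probe lies at chr7:139078075-139078135 on the minus strand (build mm7, as are all probe positions here) and was printed at 10 spots. The log2 ratios were 3.62, 3.76 and 3.74 at E14, 4.46, 4.83 and 4.66 at E18, 3.59 and 4.38 at P5, and between -0.11 and 0.51 at P56. The E18 arrays lay above all E14 arrays, 1 P5 array lay just below the E14 arrays and the other between the E14 and E18 arrays, and the P56 arrays lay far below every other array. Igf2 rose by 0.94 ± 0.20 (log2, SE) from E14 to E18 (limma adjusted p = 0.0023), and its change to P5 of -0.66 ± 0.23 did not pass (limma adjusted p = 0.073). It then fell by 3.85 ± 0.23 to P56 (limma adjusted p = 1.4e-07). Without P5 replicate 3 the change from E18 to P5 was -1.05 and passed (limma adjusted p = 0.016), and without P5 replicate 2 it was -0.27. It also passed without P56 replicate 1 (limma adjusted p = 0.036).

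The brightest Igf2 probe was saturated in Cy5 on both P5 arrays, where 10 and 9 of the 10 spots were at the scanner's limit. A dimmer Igf2 probe, at chr7:139078490-139078549, was saturated on no array. Its log2 ratios were 3.65, 3.46 and 3.38 at E14, 4.13, 4.25 and 3.97 at E18, and 4.10 and 3.91 at P5, with P56 values between 0.03 and 0.07. On this probe the change from E18 to P5 was -0.11 ± 0.12 (limma over all probes, adjusted p = 0.58), with the P5 values inside the E18 range or just below it. At P56 the dimmer probe was not well above background on any of the 3 arrays, and its Cy5 signal at E14 was at least 73.5-fold higher.

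Igf2r encodes the receptor that takes IGF2 up for degradation, and it is also a carrier of lysosomal enzymes. It had 1 probe, at chr17:11399590-11399648. The log2 ratios were 0.92, 0.93 and 1.16 at E14, 1.83, 1.78 and 1.70 at E18, 0.80 and 0.64 at P5, and -0.30, -0.12 and -0.07 at P56. E18 stood above all other stages, E14 and P5 came next without overlapping, and P56 was lowest. Igf2r rose by 0.77 ± 0.10 to E18 (limma adjusted p = 8.1e-05), fell by 1.05 ± 0.12 to P5 (limma adjusted p = 0.00019) and fell by 0.89 ± 0.12 to P56 (limma adjusted p = 8.3e-05). Its change from E14 to P56 was -1.17 ± 0.10 (limma adjusted p = 8.7e-07). The Cy5 signal itself was well above background on all 11 arrays, and at E14 it was 2.4-fold that at P56.

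H19 is a long non-coding RNA transcribed next to Igf2, and its probes lie 74.5 kb from those of Igf2. Both H19 probes are printed because the RNA has no protein to show, and because they read the same RNA at places that differ. The second spans 148 bases of the genome with its 60 letters, so its letters do not form an unbroken stretch of the genome.
H19 probe at chr7:139003144-139003203, minus strand: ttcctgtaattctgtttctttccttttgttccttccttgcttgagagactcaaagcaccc
H19 probe at chr7:139003393-139003540, minus strand: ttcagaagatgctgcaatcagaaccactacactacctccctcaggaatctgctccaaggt

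On the first and brighter probe, H19 log2 ratios were 3.13, 3.12 and 3.15 at E14, 3.79, 3.85 and 3.79 at E18, 3.37 and 3.40 at P5, and 0.55, -0.07 and 0.13 at P56. No 2 stages overlapped, with E18 highest, P5 next, then E14 and P56. H19 rose by 0.68 ± 0.13 to E18 (limma adjusted p = 0.0012), and its change to P5 of -0.42 ± 0.15 did not pass (limma adjusted p = 0.078). That change passed without P56 replicate 1 (limma adjusted p = 0.012) or without P56 replicate 2 (limma adjusted p = 0.037). H19 fell by 3.18 ± 0.15 from P5 to P56 (limma adjusted p = 2.7e-08). The second probe gave 0.92 ± 0.14, -0.28 ± 0.16 and -3.95 ± 0.16 for the same steps. On that probe P5 and E18 overlapped, with P5 replicate 2 at 4.40 and the E18 arrays at 4.25 to 4.45. H19 stayed well above background on all P56 arrays with its first probe, and its Cy5 signal at E14 was 45.8-fold that at P56.

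Cdkn1c encodes p57, an inhibitor of cyclin-dependent kinases that restrains the cell cycle. Its probe lies at chr7:139886128-139886187, in the same imprinted region as Igf2 and 883 kb from H19. The log2 ratios were 3.48, 3.26 and 3.27 at E14, 3.64, 3.73 and 3.65 at E18, 2.60 and 2.15 at P5, and 0.19, 0.16 and -0.27 at P56. All E18 arrays lay above the E14 arrays by less than the test required (0.34 ± 0.14, limma adjusted p = 0.075). Leaving out P5 replicate 2, P5 replicate 3 or P56 replicate 3 took that adjusted p to 0.044, 0.043 and 0.043 in limma. On the Cy5 signal alone the change to E18 went the other way and did not pass (-0.28 ± 0.15, limma adjusted p = 0.15). The Cy3 reference signal changed by -0.61 in that step. Cdkn1c fell by 1.30 ± 0.16 to P5 (limma adjusted p = 0.00042) and by 2.35 ± 0.16 to P56 (limma adjusted p = 5.4e-07).

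Grb10 encodes an adaptor protein that binds insulin and IGF receptors and dampens their signal. Its brightest probe lies at chr11:11882970-11883029. The log2 ratios were 4.31, 4.49 and 4.52 at E14, 6.34, 5.81 and 5.80 at E18, 5.16 and 3.68 at P5, and -0.28, -0.25 and -0.21 at P56. E18 was highest on every array, the P5 pair straddled the E14 values, and the P56 ratios lay just below 0. Grb10 rose by 1.55 ± 0.28 to E18 (limma adjusted p = 0.00082), then fell by 1.56 ± 0.32 to P5 (limma adjusted p = 0.0082) and by 4.67 ± 0.32 to P56 (limma adjusted p = 5e-07). Without P5 replicate 3 the fall to P5 was -0.82 (limma adjusted p = 0.031), and without P5 replicate 2 it was -2.30. At P56 no array was well above background, and the Cy5 signal at E14 was at least 40.1-fold higher.

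A pair of dimmer Grb10 probes is printed because they lie farther upstream in the gene than the brightest one and rose to E18 as well. The first of them spans 649 bases of the genome with its 60 letters.
Grb10 probe at chr11:11885585-11886233, minus strand: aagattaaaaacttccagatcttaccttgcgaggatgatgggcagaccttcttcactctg
Grb10 probe at chr11:11922579-11922638, minus strand: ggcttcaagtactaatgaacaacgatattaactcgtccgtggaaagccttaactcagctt
From E14 to E18 they rose by 0.81 ± 0.18 (limma over all probes, adjusted p = 0.0035) and 1.61 ± 0.28 (limma over all probes, adjusted p = 0.00054). From E14 to P56 the first fell by 1.04 ± 0.18 (limma over all probes, adjusted p = 3e-04). The change of the second, -0.64 ± 0.28, did not pass (limma over all probes, adjusted p = 0.056), and its mean Cy5 signal above background at E14 was 36.1.

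Plagl1 encodes a zinc finger transcription factor known to slow proliferation and to act on other imprinted genes. Its brightest probe lies at chr10:12831831-12831890. The log2 ratios were 4.60, 4.99 and 5.03 at E14, 4.70, 4.48 and 4.39 at E18, 3.84 and 1.92 at P5, and -0.34, 0.04 and -0.32 at P56. E14 and E18 overlapped, and the P5 arrays were lower but far apart. The change to E18 of -0.35 ± 0.35 did not pass (limma adjusted p = 0.45). Plagl1 fell by 1.64 ± 0.40 to P5 (limma adjusted p = 0.018), and this call was lost without E18 replicate 1 (limma adjusted p = 0.059), without E18 replicate 2 (limma adjusted p = 0.051) and without P5 replicate 3, where the change was -0.68 (limma adjusted p = 0.081). Without P5 replicate 2 the fall was -2.60. From E14 to P56 Plagl1 changed by -5.08 ± 0.35 (limma adjusted p = 1.1e-07), with its probe well above background on 1 of the 3 P56 arrays. A dimmer Plagl1 probe at chr10:12830021-12830080 changed by -0.67 ± 0.10 over the same span (limma over all probes, adjusted p = 6.6e-05), with a mean Cy5 signal above background of 68.2 at E14.

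Dlk1 encodes a membrane protein related to Notch ligands that marks hepatoblasts, the fetal progenitors of hepatocytes. The log2 ratios of its brightest probe, at chr12:106981689-106981748, were 4.56, 4.59 and 4.67 at E14, 4.54, 4.69 and 4.64 at E18, 3.49 and 2.48 at P5, and -0.14, -0.20 and -0.03 at P56. E14 and E18 overlapped, and both P5 arrays lay below them. The ratio did not pass from E14 to E18 (0.01 ± 0.19, limma adjusted p = 0.96), fell by 1.63 ± 0.21 to P5 (limma adjusted p = 0.00058) and fell by 3.11 ± 0.21 to P56 (limma adjusted p = 5.3e-07). At P56 the probe was not well above background on any array, and the Cy5 signal at E14 was at least 459-fold higher. A dimmer probe is printed because its ratio fell further at P5.
Dlk1 probe at chr12:106981450-106981509, plus strand: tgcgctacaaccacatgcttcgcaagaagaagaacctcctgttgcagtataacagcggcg
Its log2 ratios were 3.90, 3.74 and 3.87 at E14, 3.65, 3.78 and 3.61 at E18, and 1.67 and 0.72 at P5, a fall of 2.49 ± 0.21 from E18 to P5 (limma over all probes, adjusted p = 2.9e-05). On the Cy5 signal alone its change in that step was not larger, with -3.33 ± 0.14 against -3.50 ± 0.11 on the brightest probe.

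Mest encodes an enzyme of the alpha/beta hydrolase fold and is known as a gene of fetal mesoderm and of growing fat tissue. Its probe lies at chr6:30680425-30680484. The log2 ratios were 4.48, 4.66 and 4.48 at E14, 4.30, 4.16 and 4.10 at E18, 4.07 and 3.19 at P5, and -0.54, 0.16 and -0.41 at P56. Stage means stepped down at each stage, and neither early step passed, with -0.35 ± 0.22 to E18 (limma adjusted p = 0.2) and -0.56 ± 0.24 to P5 (limma adjusted p = 0.15). The step to P5 was -1.0 without P5 replicate 2 and then passed (limma adjusted p = 0.0096), and it was -0.12 without P5 replicate 3. Mest fell by 3.89 ± 0.24 from P5 to P56 (limma adjusted p = 2.3e-07) and was well above background on all P56 arrays.

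Peg3 encodes a large zinc finger protein known for roles in maternal behaviour and fetal growth. Its brightest probe is printed because the other Peg3 probes were dimmer, and 1 of them was not well above background on any array and was left out of the tests.
Peg3 probe at chr7:6266913-6266972, minus strand: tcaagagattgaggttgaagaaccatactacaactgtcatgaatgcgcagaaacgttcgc
The log2 ratios were 1.69, 1.83 and 1.88 at E14, 1.97, 1.63 and 2.07 at E18, 2.20 and 0.86 at P5, and -0.05 to -0.09 at P56. E14, E18 and P5 overlapped. Neither 0.09 ± 0.25 from E14 to E18 (limma adjusted p = 0.79) nor -0.36 ± 0.28 from E18 to P5 (limma adjusted p = 0.44) passed. The second step was -1.03 and passed without P5 replicate 2 (limma adjusted p = 0.0017), and it was 0.31, in the other direction, without P5 replicate 3. Peg3 fell by 1.60 ± 0.28 from P5 to P56 (limma adjusted p = 0.00073), which was -0.93 without P5 replicate 2 (limma adjusted p = 0.0013) and -2.26 without P5 replicate 3. With Feature Extraction's processed signals the change of Peg3, P56 minus P5, was -3.77. At P56 no array was well above background, and the Cy5 signal at E14 was at least 4.32-fold higher, the smallest such bound among the brightest probes.

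**Figure D2:**
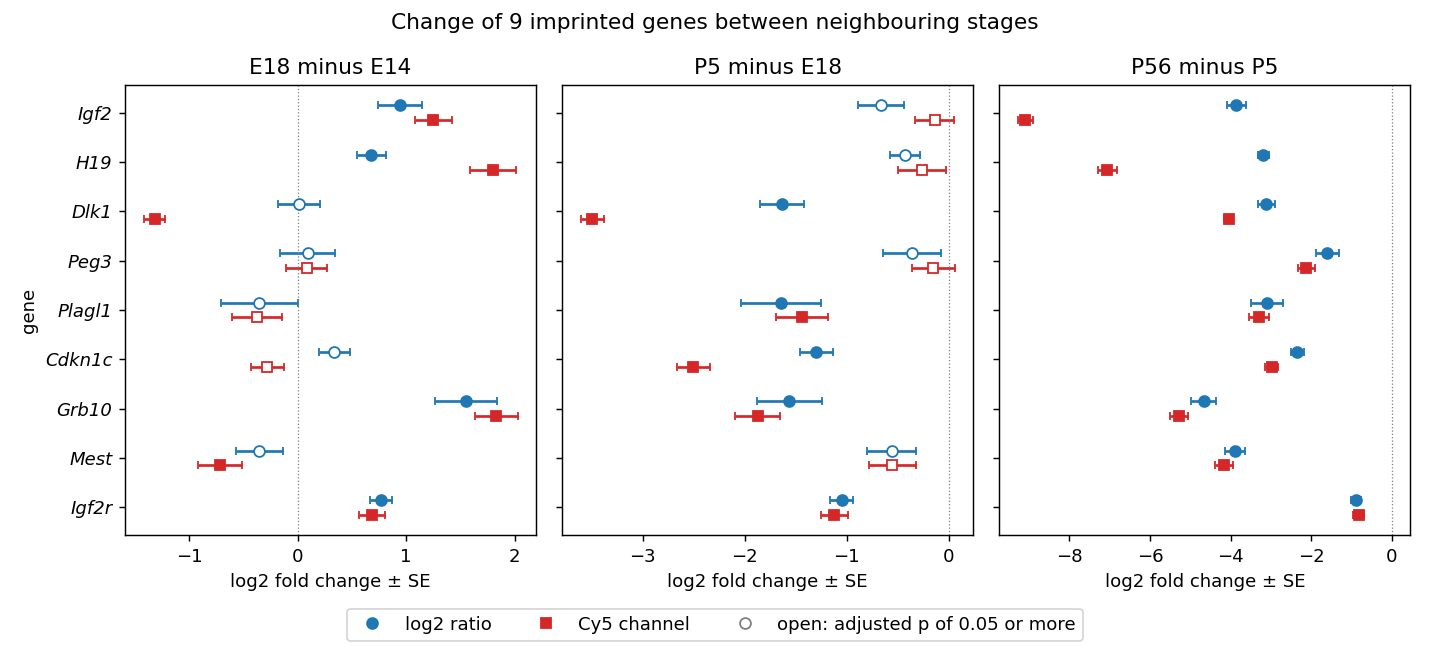
Log2 fold change between neighbouring stages (x axis, with bars of 1 SE from limma) for the 9 genes (y axis), from the log2 ratio (circles) and from the Cy5 signal alone (squares). Filled symbols passed an adjusted p of 0.05, and the x axes of the panels differ. Igf2, H19, Grb10 and Igf2r rose to E18 on both scales, whereas Dlk1 and Mest fell to E18 on the Cy5 scale only.

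Over the whole span from E14 to P56 the log2 ratio fell for all 9 genes, with changes from -1.17 to -5.08 and a median of -3.57. Among all genes, 34.8% were called lower and 36.1% higher in that comparison, with a median change of 0.04. Of the 9 genes, 4 (Plagl1, Mest, Dlk1 and Grb10) were among the 100 genes with the largest falls of the ratio. The order differed on the Cy5 signal alone, where Dlk1 changed most (-8.86). There Igf2 (-7.97), Cdkn1c (-5.76) and H19 (-5.52) fell further than Mest (-5.43), Grb10 (-5.32) and Plagl1 (-5.10). When every probe was fitted by itself, 15 of the 16 probes tested were called lower, against 35.2% of 23525 probes. Probes passed the filter if well above background on every array of some stage. Those of Dlk1, Peg3 and Grb10, and the dimmer Igf2 probe, were well above background on no P56 array. At P56 only the Cdkn1c, Mest and Igf2r probes and the brighter H19 probe were so on every array. The other probes passed through earlier stages only. A fall to P56 was nearly the only call open to them, so for these the counts are no separate support. The change from E18 to P56 minus the change from E14 to E18 was also fitted. A large fall to P56 by itself takes this value below 0, so it does not place a turn at E18. It was below 0 for all 9 genes, from -7.78 ± 0.49 for Grb10 to -2.05 ± 0.44 for Peg3 (limma adjusted p = 3.4e-07 and 0.0022), against 28.1% of genes called lower and 23% called higher. Median centring took the lower share of the genes called from 54.9% to 85.6% in this test, and from 49% to 77.1% at P56 against E14. Within the first scan, E18 replicate 1 lay above the E14 mean by 0.75 for Igf2, 0.65 for H19, 1.90 for Grb10 and 0.83 for Igf2r. Within the last scan, the P56 mean lay below P5 replicate 3 for all 9 genes, with differences of -3.93 for Grb10, -3.45 for Mest, -3.20 for H19 and -0.81 for Igf2r.

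The ratios divide by a reference whose signal did not stay level for some of these genes. The same adult RNA was in the Cy3 channel of every array, yet the Cy3 signal above background of the brightest Igf2 probe was 1220 to 1609 at E14, 2025 to 3061 at E18, 4839 and 2808 at P5, and 33 to 38 at P56. The Cy3 signal of Dlk1 was 915 to 1216 at E14, 459 to 661 at E18, 98 and 65 at P5, and 22 to 24 at P56. In both cases the stage means of Cy3 rose and fell with those of Cy5. Before P56 the stage mean of Cy3 was 4.44% to 6.84% of that of Cy5 for Igf2, which was saturated in Cy5 at P5, and 3.58% to 5.94% for Dlk1. After normalization per channel, the log2 change of Cy3 from E14 to P56 was -4.40 for Igf2, -4.12 for Dlk1, -2.59 for H19 and -2.45 for Cdkn1c. From the lowest of 16704 genes, these ranked 3, 4, 12 and 13. The same change was -0.10 for Igf2r and -0.02 for Plagl1, and the 5th to 95th percentile over all genes was -0.376 to 0.289. The part of the Cy3 channel in the ratios was not tested.

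**Figure D3:**
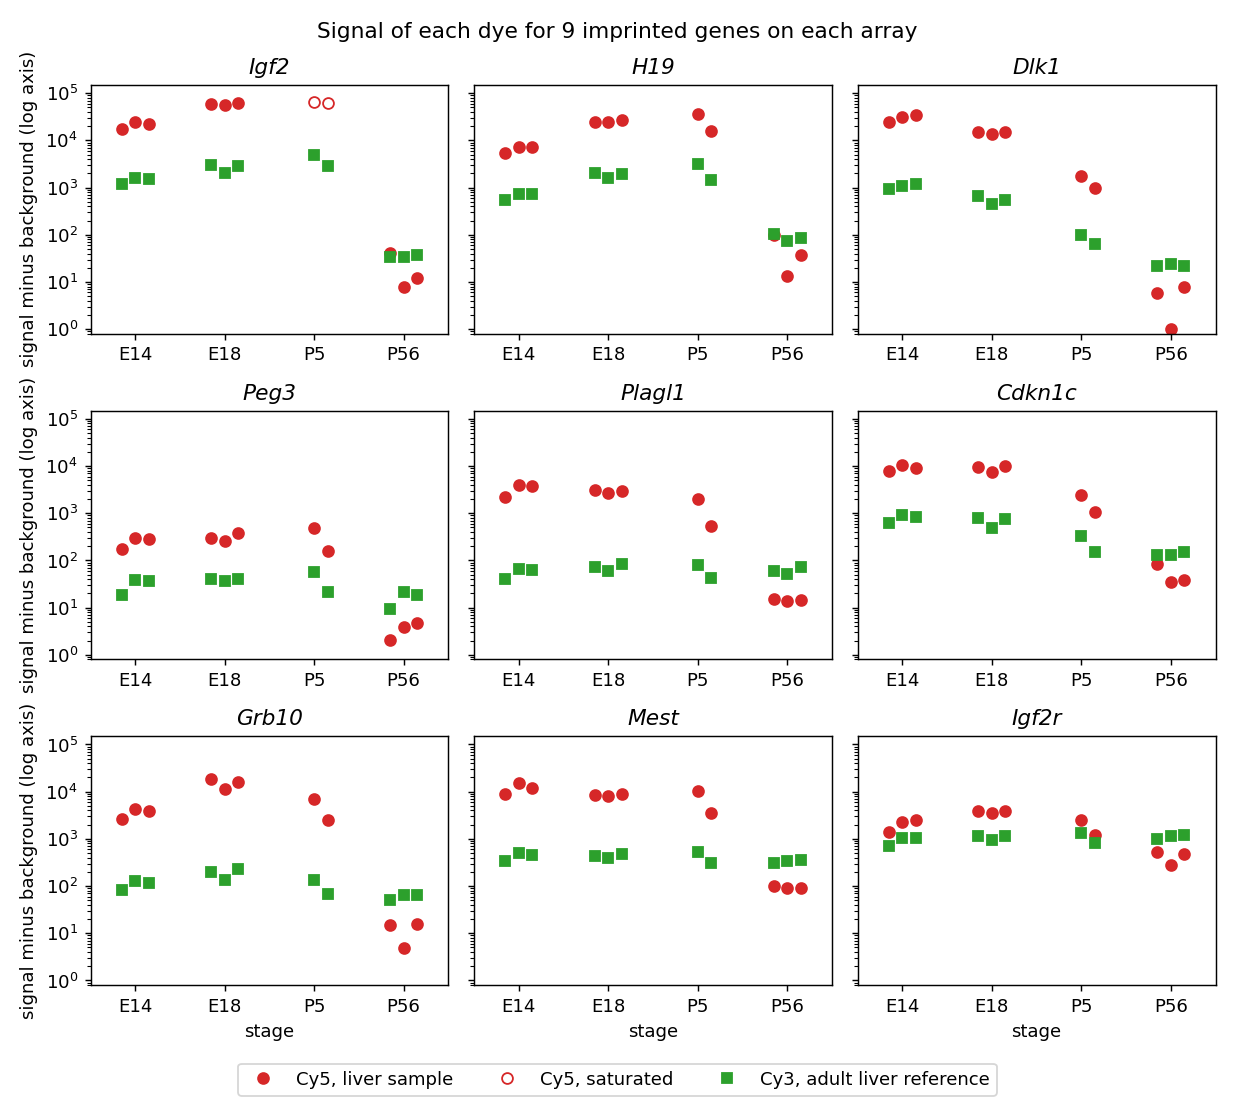
Signal minus local background (y axis, log axis) of the brightest probe of each gene in Cy5 (liver sample, circles) and Cy3 (adult reference, squares) on each of the 11 arrays, by stage (x axis). Open circles are saturated, and a value under 1 is drawn at 1. For Igf2, H19, Dlk1 and Cdkn1c the Cy3 squares drop at P56 together with the Cy5 circles, while for Igf2r, Plagl1 and Mest they stay nearer one level.

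On the Cy5 signal alone, after loess and Aquantile normalization, the changes from E14 to P56 were larger for all 9 genes, and some early steps differed. The median change of the 9 genes from E14 to P56 was -5.43, the value of Mest. From E14 to E18, 4 genes were called higher on Cy5 and 2 lower, against 22.5% and 25.6% of all genes. The 4 higher genes were again Igf2 (1.25 ± 0.17), H19 (1.80 ± 0.21), Grb10 (1.83 ± 0.19) and Igf2r (0.68 ± 0.12). Dlk1 fell by 1.32 ± 0.10 (limma adjusted p = 1.7e-06) and Mest by 0.71 ± 0.20 (limma adjusted p = 0.013). For Dlk1 the ratio and the Cy5 signal thus gave different calls, with raw Cy5 signals of 24553, 30746 and 35118 at E14 and 14901, 13698 and 15022 at E18. From E18 to P5 the Cy5 signal gave the same calls as the ratio for all 9 genes.

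Marker genes of other liver cells moved between the same stages. The counts below stand beside 34.8% of all genes called lower and 36.1% called higher at P56 than at E14. Of 14 erythroid markers 13 were tested, and all 13 were lower at P56 than at E14, with a median of -3.69. Their mean log2 ratio was 3.46 to 3.56 per array at E14, 3.30 to 3.45 at E18, 2.58 to 3.13 at P5 and -0.20 to 0.01 at P56. Their summed Cy5 level was 257027 to 277386 at E14, 175453 to 196707 at E18, 139247 to 168035 at P5 and 24594 to 37408 at P56. At P56, Epb4.2, Ermap, Hbb-bh1, Rhd and Tal1 were among those not well above background on any array. Of 12 hepatocyte markers 11 were tested, and all 11 were higher at P56 than at E14, with a median of 4.06. Of 14 stellate and mesenchymal markers, 12 were lower at P56 than at E14 and 2 higher. The 6 hepatoblast markers other than Dlk1 had mean log2 ratios of 0.66 to 0.78 at E14, 1.43 to 2.09 at E18, 1.84 to 1.97 at P5 and -0.58 to -0.08 at P56. All 6 of these, and all 11 hepatocyte markers, were well above background on every array. Of the 7 hepatoblast markers with Dlk1 counted, 3 were lower at P56 than at E14, 3 higher and 1 not called. Their median change was 0.42, and the lower ones were Afp, Gpc3 and Dlk1. From E14 to P56, 6 of 9 endothelial markers, 5 of 10 macrophage markers, 2 of 9 markers of other blood cells and 1 of 4 biliary markers were higher, and 0, 0, 4 and 1 were lower. The part of these cells in the change of the imprinted genes was not tested.

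**Figure D4:**
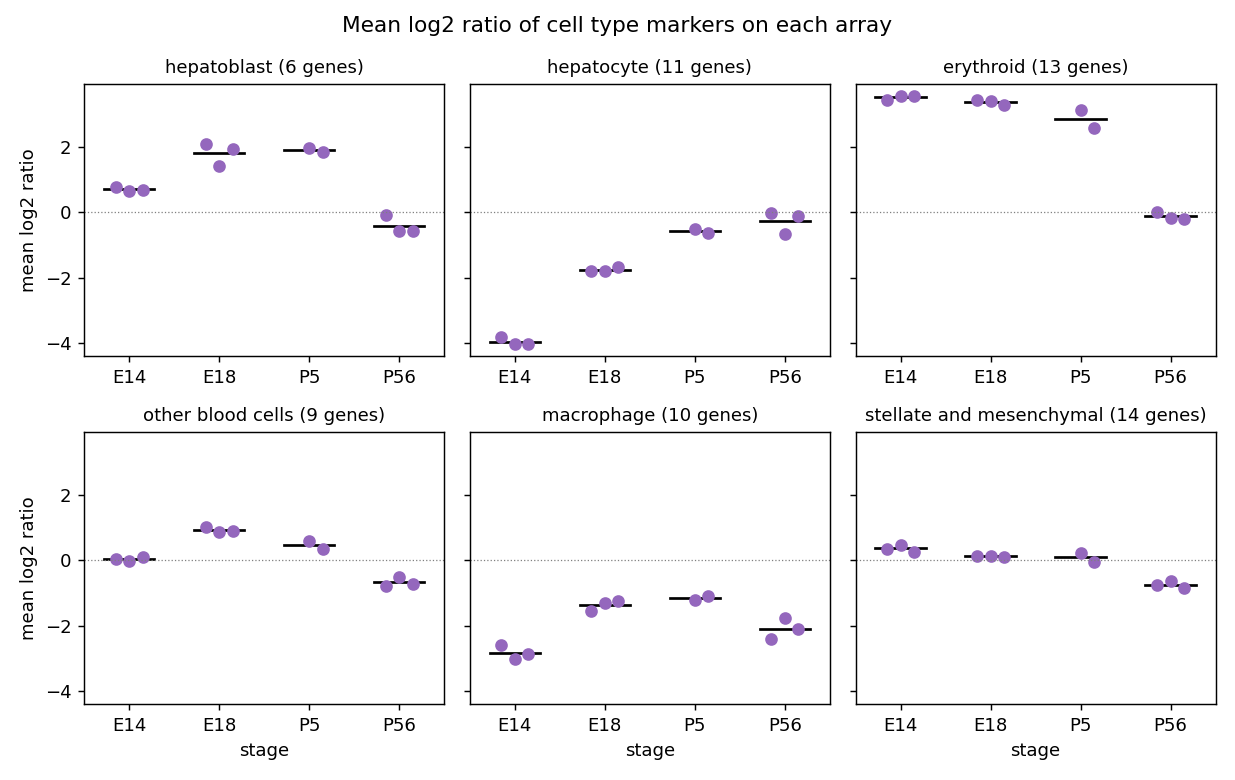
Mean log2 ratio (y axis) of the tested genes of 6 cell type marker lists on each of the 11 arrays, by stage (x axis), with points for arrays, a bar for the stage mean and a dotted line at 0, the adult reference. Erythroid markers lie at 2.58 to 3.56 before P56 and near 0 at P56, while hepatocyte markers climb from E14 to P5.

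The genes nearest to each imprinted gene, by the root mean square difference of log2 ratios over the 11 arrays after taking off each gene's mean, are given with that difference in brackets. For Igf2 they were the globin genes Hba-a1 (0.26) and Hbb-b1 (0.27) and the red cell anion exchanger gene Slc4a1 (0.36). This nearness is of the ratios only. On the Cy5 signal alone, Igf2 rose by 1.25 from E14 to E18. Hba-a1, Hbb-b1 and Slc4a1 changed there by -0.19, -0.18 and -0.10 and did not pass. For H19 they included Tspan33 (0.25) and Specc1 (0.28). For Cdkn1c they were C1qdc2, Myb and Tmem40 (0.23 to 0.26), and for Grb10 they were Acss1, Mki67 and Mpo at larger distances (0.51 to 0.56). Mest lay nearest to the replication helicase gene Mcm4 (0.13), then to Uhrf1 (0.17) and Tal1 (0.19), and Peg3 to Esco2, Brca1 and Sgol2 (0.15 to 0.17). Dlk1 and Plagl1 were among the nearest genes of each other (0.31), with LOC383229 and Uhrf1 beside Dlk1 and Fignl1 and Uhrf1 beside Plagl1. Igf2r lay nearest to 2810423A18Rik, Il1rl1 and Add3 (0.17 to 0.18).

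Other imprinted genes were counted in the same fit. Of 62 listed, 53 were on the array under a listed name and 41 were tested. From E14 to P56, 19 were lower, 14 higher and 8 not called, with a median of -0.11, beside 34.8% lower and 36.1% higher among all genes. The 14 higher became 7 when arrays were centred on their median, which moved the median of all genes from 0.04 to -0.33. The largest falls were those of Asb4 (-3.70 ± 0.11), Phlda2 (-2.42 ± 0.17), a gene of placental growth, and the non-coding RNA Rian (-2.13 ± 0.17). The largest rises were those of Tfpi2 (2.81 ± 0.14), an inhibitor of serine proteases, the amino acid transporter gene Slc38a4 (2.41 ± 0.18) and Slc22a18 (2.18 ± 0.14). All 6 passed in limma (adjusted p from 1.5e-10 to 3.2e-07). From E14 to E18, 13 were lower and 15 higher, beside 22.8% and 24.6% of all genes. Slc38a4 (2.57 ± 0.18), Pon3 (1.61 ± 0.13) and Dhcr7 (1.49 ± 0.14) rose most, and Asb4 (-2.42 ± 0.11), Mcts2 (-1.0 ± 0.09) and Peg12 (-0.96 ± 0.14) fell most. Meg3, the maternal non-coding RNA of the Dlk1 region, is named Gtl2 on the array, with probes 89.2 kb from Dlk1. It had mean log2 ratios of 1.83 at E14, 2.81 at E18, 1.66 at P5 and 0.01 at P56, and it rose by 0.99 ± 0.21 to E18 (limma adjusted p = 0.0022).

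Partners of the IGF pathway were counted next. Of 20 listed genes 16 were tested, and from E14 to P56 7 were higher, 6 lower and 3 not called, beside 36.1% higher and 34.8% lower among all genes. Igf1, the postnatal growth factor made by hepatocytes, had mean log2 ratios of -3.99 at E14, -3.43 at E18, -2.44 at P5 and 0.09 at P56, a rise of 4.08 ± 0.13 (limma adjusted p = 2.5e-10). The growth hormone receptor gene Ghr rose by 3.76 ± 0.10 and the binding protein gene Igfbp2 by 2.33 ± 0.14 over the same span. Igf1r, which encodes the signalling receptor of both IGFs, fell by 0.47 ± 0.11 (limma adjusted p = 0.0024). Igfbp5 (-2.73 ± 0.33), Igf2bp3 (-2.22 ± 0.26) and Igf2bp1 (-2.15 ± 0.13) fell most, and the last pair encode proteins that bind IGF2 messenger RNA. From E14 to E18, 9 of the 16 were higher and 3 lower, beside 24.6% and 22.8% of all genes. Igfbp1 rose by 6.16 ± 0.50 (limma adjusted p = 1.4e-06), Igfbp2 by 3.33 ± 0.14 and Ghr by 1.43 ± 0.10, while Igfbp5 (-1.05 ± 0.33), Igf2bp1 (-0.94 ± 0.13) and Igfbp3 (-0.34 ± 0.10) fell most.

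Genes of imprint maintenance and of the known shutdown of fetal liver genes after birth were counted as a list of their own. Of 19 listed, 13 were tested, and from E14 to P56 11 were lower and 1 higher. Among all genes these shares were 34.8% and 36.1%. Afp, the fetal serum protein gene, fell by 5.67 ± 0.26, the cofactor of maintenance methylation Uhrf1 by 4.83 ± 0.22 and the surface proteoglycan gene Gpc3 by 4.06 ± 0.09. Zbtb20, a repressor of Afp, was the gene that rose, by 2.89 ± 0.13 (limma adjusted p = 3e-09). It had already risen by 2.24 ± 0.13 from E14 to E18, when Lpl (3.78 ± 0.16) and Gpc3 (0.91 ± 0.10) also rose. Trim28 (-0.58 ± 0.11), Dnmt3b (-0.54 ± 0.17) and Ctcf (-0.29 ± 0.11) fell in that step. Zhx2, another repressor of Afp and H19, did not pass the filter on dim probes.

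The sequence upstream of the start sites was counted for CG, the dinucleotide on which imprints are written as methylation. RefSeq promoter windows (build GRCm38.p6) were found for 7 of the 9 genes, with 13 start sites in all, and H19 and Cdkn1c were not matched. Starts of the same gene were counted separately. A pair of Mest windows, chr6:30737800-30738049 and chr6:30737803-30738052, overlap almost wholly. In the 250 bases upstream, the CG count ranged from 1 at an Igf2 start to 40 at a Grb10 start. Over all 32851 start sites the median was 6, with quartiles of 2 and 16, and 11 of the 13 starts lay above that median. At least 1 CG, which reads the same on both strands, was in 92.1% of them. Igf2r and Dlk1 are printed to show a window rich in CG and one closer to the median. CG is in capitals, and no methylation was measured here.
Igf2r upstream, chr17:12769707-12769956, minus strand, with 27 CG: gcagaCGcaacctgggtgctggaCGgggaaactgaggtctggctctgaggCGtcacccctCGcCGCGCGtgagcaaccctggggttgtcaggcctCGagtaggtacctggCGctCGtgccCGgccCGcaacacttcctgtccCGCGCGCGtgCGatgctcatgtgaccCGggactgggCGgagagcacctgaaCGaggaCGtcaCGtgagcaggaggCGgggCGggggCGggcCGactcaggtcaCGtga
Dlk1 upstream, chr12:109452573-109452822, plus strand, with 8 CG: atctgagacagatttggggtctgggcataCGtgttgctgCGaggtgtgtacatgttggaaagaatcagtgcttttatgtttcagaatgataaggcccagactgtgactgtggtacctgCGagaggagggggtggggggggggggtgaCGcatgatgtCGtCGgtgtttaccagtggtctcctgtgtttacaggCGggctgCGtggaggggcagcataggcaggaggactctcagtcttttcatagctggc
Of all start sites, 91.4% had fewer CG than that of Igf2r and 57% fewer than that of Dlk1.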

How the data were processed

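RNA of 11 liver samples was hybridised to Agilent 44k arrays with 60-base probes, the sample in Cy5 and the reference in Cy3, with no dye swap. RNA was amplified before labelling. Per the file headers, spot intensities in both dyes were read by the authors with Feature Extraction 9.5.1.1, which also set the flags for saturation, outliers and spots above background. The authors deposited a gene table of log2 ratios too, made with limma per the submitters' notes (version not given in the sources used here). It was used only as an alternative, and its exact steps are not settled.

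Mean intensities were background-corrected (normexp, offset 50) and loess-normalized within arrays in limma 3.58.1 (R 4.3.3, with data.table at version 1.17.8), without the 1639 control spots and the outlier spots. Probes entered the tests if some stage had them well above background in Cy5 throughout, with at most 1 missing value per stage. The brightest probe stood for a gene. A limma fit over 11 arrays gave adjusted p-values (Benjamini-Hochberg, threshold 0.05). The Cy5 signal was also normalized by itself (loess and Aquantile). A bound on a fold uses the lowest Cy5 signal well above background on each array. The number of arrays limits the precision. Figures were drawn with matplotlib 3.10.9 (Python 3.11.15). Upstream sequences are from RefSeq.

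Samples were grouped by the stage in the labels. The imprinted genes and the gene lists were chosen with earlier results of these data known. The genes named from each list are up to 3 called genes of largest rise and of largest fall in E18 against E14 and P56 against E14, with Meg3, Igf1, Igf1r, Afp, Gpc3, Zhx2 and Zbtb20, and the 3 genes nearest to each imprinted gene. Some genes that these rules name are not reported here. Alternatives covered background correction, normalization, probe filter and summary, channel, scan and replicate blocks, the methods' t-test and leaving out each array.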

Additional observations from a re-analysis of the deposited data

How the results depend on the processing

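The fall of all 9 genes to P56, from E14 and from P5, was called under each alternative run except those named here. With probes required to be above background on all 11 arrays, only 4 of the genes were tested, and all 4 were called lower in both comparisons, while 2 were higher at E18 than at E14 and 2 lower at P5 than at E18. The methods' t-test after Benjamini-Hochberg adjustment called 1 gene lower at P56 than at P5 and 0 lower at P5 than at E18 (4 at their unadjusted threshold), and 1 lower at E18 than at E14 with or without the adjustment. With Feature Extraction's processed signals, 2 genes were higher and 1 lower at E18 than at E14, and 3 were lower at P5 than at E18. In the deposited gene table these counts were 2 higher and 1 lower at P5. The rise of Igf2 to E18 did not pass with the processed signals or in the deposited table (limma adjusted p = 0.13 and 0.2). Nor did that of H19 (limma adjusted p = 0.092 and 0.053). With a log2 change of at least 1 required, 1 gene was higher at E18, and Igf2r, at -0.89, was not called lower at P56 than at P5. With only the 2 stages compared in the fit, 2 were lower at E18. On the Cy5 channel alone, 2 were lower at E18, both after quantile normalization and after loess and Aquantile, and Dlk1 then changed by -1.09 and -1.32 in place of 0.01. The cause was not tested.

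The Cy5 signal after loess and Aquantile and the scan as a random block were added after seeing the data. With the scan as a random block, the counts were 4 higher at E18, 5 lower at P5, and 9 lower at P56 against P5 and against E14. As a fixed block it gave 4 higher at E18 and 9 lower at P56 against P5, and it could not be fitted for the comparisons that share no scan. Leaving out 1 array at a time gave 4 to 5 genes higher and 0 to 0 lower at E18, 4 to 7 lower at P5, and 9 to 9 lower at P56 against P5 and E14.

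Arrays of the same replicate number did not deviate together (r from -0.306 to 0.187 over 15 pairs, 1 of them above 0.1), so the numbers were not taken as pairs. With the replicate block, 5 genes were higher at E18, with Cdkn1c added (limma adjusted p = 0.049), 5 were lower at P5, and 9 were lower at P56 in both comparisons.

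Of the imprint maintenance list, 5 genes in place of 3 were lower at E18 and 2 in place of 1 higher at P56 against E14 on the Cy5 channel after quantile normalization. Of the other imprinted genes, 7 in place of 14 were higher at P56 against E14 with median centring. With a normexp offset of 1, 37% of the genes called at E18 against E14 were lower, against 48.1%, and with the Cy5 quantile values 58.2%. Signals at P56 at or near background limit how far the falls of Igf2, Dlk1, Peg3, Plagl1 and Grb10 can be measured.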
